A study of Mus musculus with 9 samples.

Results

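Null Eα cells, mouse embryonic stem cells that lack β-catenin and carry a fusion of E-cadherin to α-catenin, were compared with the flox cells that the labels name as controls. The comparison took the 3 arrays titled null Eα and the 3 titled flox/-, that is 6 of the 9 arrays of the series, and covered all 19938 genes that could be named. Flox cells had 1 β-catenin allele deleted and the other floxed. Null cells, on the 3 remaining arrays, had both alleles deleted, and null Eα cells were described as null cells stably transfected with the fusion construct. All 3 groups were of a mixed S129S6-C57BL/6 background and were grown on gelatin with serum and leukaemia inhibitory factor (LIF), a cytokine that sustains self-renewal, to sub-confluence. The labels call the replicates biological but do not say whether they were separate lines or cultures of 1 line, or whether the fusion line was 1 clone. The p-values below therefore measure the spread between these samples, and genotype and line cannot be told apart.

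β-catenin works at the cell membrane, where it links the cadherin tail to α-catenin and through it to actin, and in the nucleus, where it joins TCF and LEF factors to switch on Wnt target genes. Without a Wnt signal a destruction complex of Axin, APC and the kinases CK1 and GSK3 marks it for degradation. A cadherin fused directly to α-catenin bypasses β-catenin at the junction and supplies nothing for its role in the nucleus. In mouse embryonic stem cells β-catenin is also known to relieve repression by Tcf7l1 of genes of the naive pluripotency network. The question put here was which transcripts still differed from flox in cells that had the adhesion link but no β-catenin.

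All values are log2 RMA signals, so a difference of 1 is a 2-fold change, and every difference is null Eα minus flox unless another is named. A gene was called, and is said to have risen or fallen, at an adjusted p (Benjamini-Hochberg, limma fit over all genes) under 0.05. The difference of null from flox is given beside it. Both differences share the flox arrays, so a likeness between them is no independent evidence, and the test of null Eα against null is named where it is used. Standard errors follow the sign ±, with n = 3 arrays per group.

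Of the 19938 genes, 6399 (32.1%) rose and 6295 (31.6%) fell, 63.7% in all, and the groups did not overlap in 69.5%. In null against flox 55.2% were called, 26.5% higher and 28.7% lower, and in null Eα against null 31.7%, 13.6% higher and 18.1% lower. Most of these differences were small. The median size of a called difference was 0.55. At least 2-fold rises numbered 442 (2.22%) and falls 1944 (9.75%), while 27 genes rose and 13 fell at least 8-fold by the fitted difference. The direction followed the signal level. Genes with a mean of 4 to 5 had a median difference of 0.28, and those with a mean of 8 to 9 one of -0.38, with 57.3% of them lower. Olfactory and vomeronasal receptor genes, which stem cells are not known to use, had a median of 0.22, and 498 of 1190 rose. The 95th percentile of their group means set the background level, at 5.0 in flox and 5.39 in null Eα. Among the 14410 genes above it in either group, 3660 (25.4%) rose and 6214 (43.1%) fell. Within an array, values spread with an interquartile range of 3.75 to 3.84 in flox and of 3.21 to 3.37 in null Eα, and its part in these small shifts was not tested. Quantile normalization, which gives all arrays the same spread, gave 4943 higher and 5262 lower. At least 2-fold rises then numbered 612 and falls 1342. Median centring of the arrays changed the split to 4674 higher and 6987 lower. Changes under 2-fold below are therefore read beside these shares. In 18 of the rises named below flox lay below background, and in 13 of the falls null Eα did, so their sizes are not exact. The rises were those of Tnc, Mmp3, Lox, Has2, Fgf7, Mmp13, Dcn, Prrx1, Cav1, Ccl2, Cd44, Vcam1, Ankrd1, Postn, Actg2, Zeb2, Dsc2 and Psmb8. The falls were those of Obox6, Ceacam1, Srgn, Platr8, Cpn1, St8sia6, Dazl, Mael, Mest, Stra8, Sycp3, Mir19a and Mir363.

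Null Eα replicate 3 stood apart from the other 2 arrays of its group. It correlated with the null arrays at 0.978 to 0.980, against 0.964 to 0.970 for replicates 1 and 2. With the flox arrays these values were 0.951 to 0.956 and 0.945 to 0.954. In replicate 3, 188 genes lay more than 2-fold from the mean of its partners. Of these, 175 were higher and 181 lay on the side of null. The counts on the side of null were 4 of 22 genes for replicate 1 and 5 of 51 for replicate 2. Each array was set against the mean of the other 2, so the 3 counts are not independent. Without replicate 3, 6550 genes rose and 6491 fell. Fewer cells of a type and less RNA per cell cannot be told apart in these bulk samples.

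**Figure D1:**
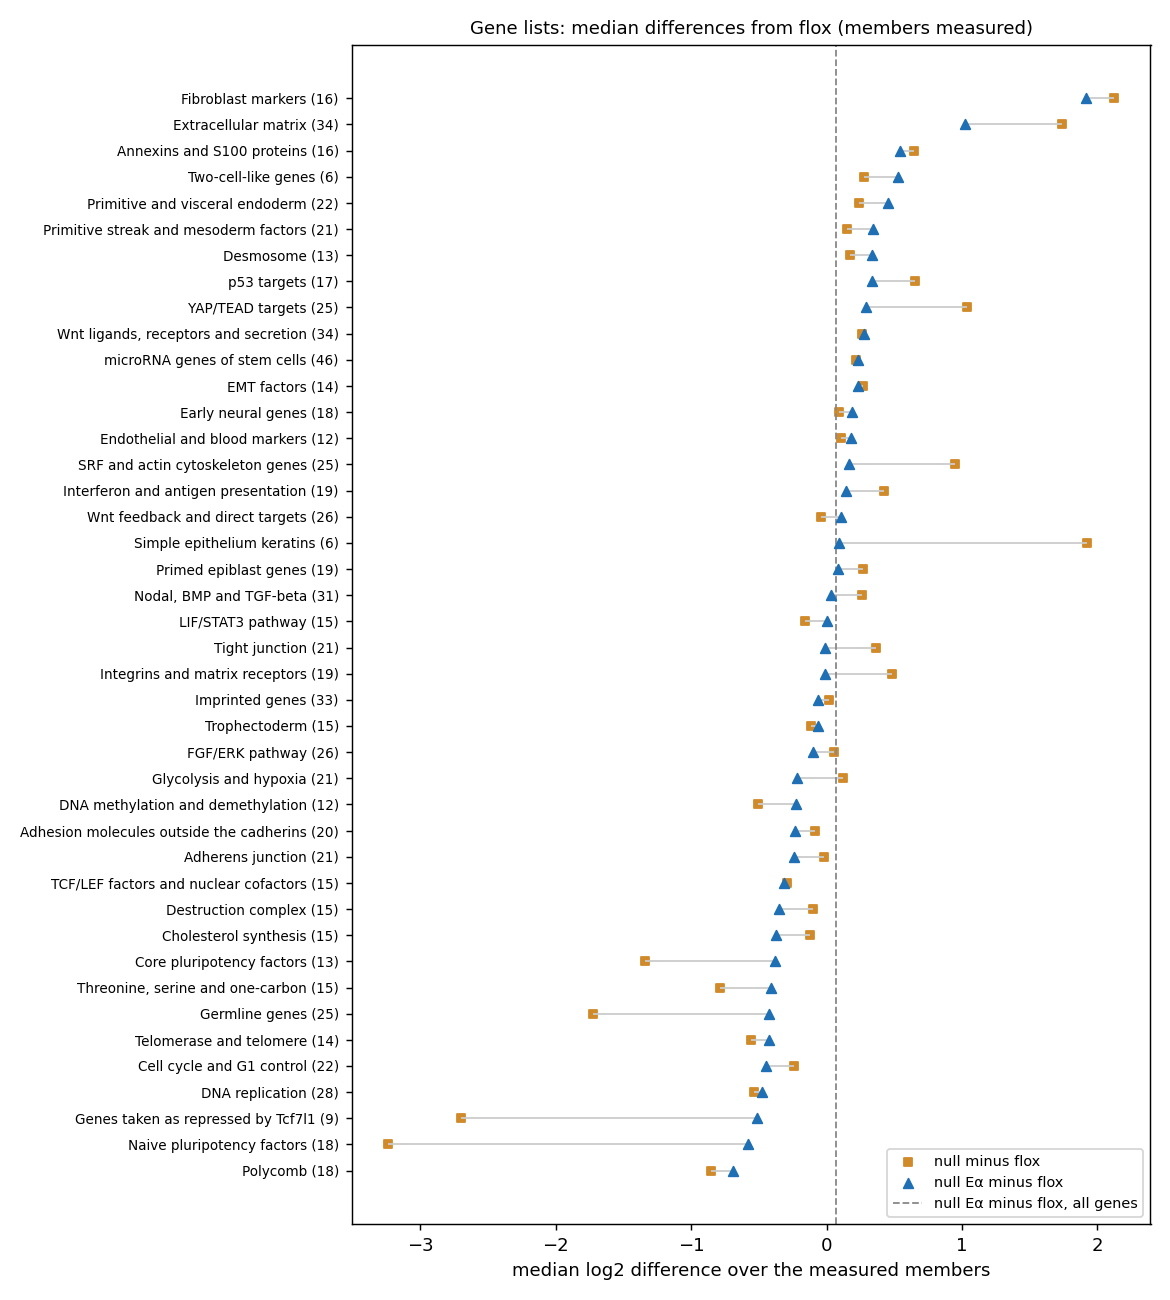
Median log2 difference from flox of the members of each gene list, with null Eα and null shown as separate points; the horizontal axis is the log2 difference and each row is 1 list. Fibroblast markers (1.92) and extracellular matrix (1.02) lay farthest above 0 in null Eα, and Polycomb (-0.69) and naive pluripotency factors (-0.58) farthest below, while the naive list in null was at -3.24.

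The β-catenin transcript itself (Ctnnb1, chromosome 9) read 11.13, 11.13 and 11.21 on the flox arrays and 10.23, 10.13 and 10.32 on the null Eα arrays. The groups did not overlap, and the fall was 0.93 ± 0.07 (adjusted p = 2.7e-06), with null at -0.65. Signal thus remained far above background in cells described as lacking both alleles. Where the probes of this feature lie relative to the deleted exons was not analysed here, so the residual signal does not measure intact transcript. The features of the genes used in the fusion did not mark the fusion line. Ctnna1, α-catenin, rose by 0.99 ± 0.07, but it differed from flox by 1.04 in null, which has no fusion, and null Eα minus null was -0.05 (adjusted p = 0.64). Cdh1, E-cadherin, read 11.29, 11.37 and 11.35 on the flox arrays and 11.15, 11.08 and 10.99 on the null Eα arrays. That is a fall of 0.26 ± 0.07 (adjusted p = 0.01), which was not called after quantile normalization of the arrays. It turned to 0.17 when each chromosome was centred.

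Wnt feedback genes that respond directly to β-catenin moved both ways. Of 26 measured, 9 rose and 9 fell, with a median of 0.11 against 0.07 over all genes. All 9 rises were under 2-fold, and rises numbered 4 without flox replicate 3. Among the falls 4 were at least 2-fold, and all 4 of these genes lie on chromosome 11. Axin2, a scaffold of the destruction complex and the standard read-out of Wnt signalling, read 7.96, 7.65 and 7.69 on the flox arrays and 6.30, 6.63 and 6.38 on the null Eα arrays. Each null Eα array was at least 1 log2 unit below each flox array. The fall was 1.33 ± 0.11 (adjusted p = 3.4e-06), null differed from flox by -1.32, and null Eα minus null was -0.01 (adjusted p = 0.96). Znrf3, a membrane ubiquitin ligase that removes Frizzled receptors, read 8.71, 8.71 and 8.70 on the flox arrays and 7.35, 7.35 and 7.12 on the null Eα arrays. It fell by 1.43 ± 0.08, with null at -1.58. Notum, a secreted enzyme that strips the lipid from Wnt proteins, fell by 1.35 ± 0.22 from flox values of 7.95, 7.94 and 7.93. Its null value was -2.48. Kremen1, a receptor for the Dkk antagonists, fell by 1.08 ± 0.12.

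Other feedback genes fell less. Tnfrsf19, a receptor of the tumour necrosis factor family, fell by 0.61, Ascl2 by 0.77 and Myc by 0.66. Sp5, a zinc finger factor that serves as a Wnt target in early embryos, read 5.22, 5.22 and 4.89 on the flox arrays and 5.48, 5.37 and 5.50 on the null Eα arrays. It rose by 0.34 ± 0.10 (adjusted p = 0.016), and Lgr5, Dkk1 and Rnf43 rose by 0.36, 0.36 and 0.32. The calls on all 4 of these rises were lost after quantile normalization. That on Sp5 was also lost without flox replicate 3 (0.23), that on Rnf43 without flox replicate 3 (0.24) or null Eα replicate 1 (0.24), and that on Dkk1 without flox replicate 3 (0.19), null replicate 1 (0.36), null Eα replicate 1 (0.30) or null Eα replicate 3 (0.35). Of the olfactory and vomeronasal receptor genes, 329 of 1190 (27.6%) rose by at least as much as Rnf43, the smallest of these 4. Lef1, a partner of β-catenin that is itself a target, was not called at 0.14 (95% interval -0.48 to 0.77).

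The promoters of Axin2 and Sp5 are shown because the fitted differences of these targets had opposite signs. That of Sp5 was small and near background, and its call did not hold after quantile normalization, median centring or without flox replicate 3. Whether the motif goes with the direction was not tested. Both windows run from 250 bases before to 50 after the annotated start in RefSeq (GRCm38.p6). Axin2 is at chr11:108920099-108920398 on the plus strand, and Sp5 at chr2:70474673-70474972 on the plus strand. Capitals mark the motif CTTTGA, the core that TCF and LEF factors recognise, searched on both strands.
Axin2: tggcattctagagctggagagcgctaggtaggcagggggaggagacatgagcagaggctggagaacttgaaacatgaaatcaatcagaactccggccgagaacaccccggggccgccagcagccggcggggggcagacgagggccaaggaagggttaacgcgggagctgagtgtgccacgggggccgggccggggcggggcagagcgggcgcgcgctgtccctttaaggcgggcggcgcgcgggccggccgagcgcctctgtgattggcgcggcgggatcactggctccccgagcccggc
Sp5: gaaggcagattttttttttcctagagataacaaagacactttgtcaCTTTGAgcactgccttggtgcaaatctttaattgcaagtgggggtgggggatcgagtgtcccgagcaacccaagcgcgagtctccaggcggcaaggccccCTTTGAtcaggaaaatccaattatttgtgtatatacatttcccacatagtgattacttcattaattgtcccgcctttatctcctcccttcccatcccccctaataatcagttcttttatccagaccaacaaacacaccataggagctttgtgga
The Sp5 window held 2 matches, starting at -204 and -104 from the annotated start, and had a GC content of 45%. The Axin2 window held 0 matches and had a GC content of 70%, with 31 CpG dinucleotides against 6 in Sp5. Across all 32851 promoter windows of the table, 16% held the motif. Of the 15 Wnt feedback genes with a window, 5 held it in at least 1 window. Lef1, Sp8 and Tnfrsf19 have several windows each and held the motif in only 1 of them. The 5 of 15 is thus a share of genes and cannot be compared with the 16%, a share of windows. A match is a string of letters and not a measured binding site.

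Among TCF/LEF factors and nuclear cofactors, 7 of 15 fell and 2 rose, a share of falls near the 43.1% of all genes above background, and the 2 rises (Tle2 0.22, Tcf7l1 0.28) were both lost without flox replicate 2, flox replicate 3 or null Eα replicate 1. Without null replicate 1 the rise of Tcf7l1 remained, and without null Eα replicate 2 both were lost and 1 other member rose. Tle5, a short member of the Groucho corepressor family, read 10.01, 9.94 and 9.94 on the flox arrays and 7.71, 7.64 and 7.28 on the null Eα arrays, far apart. It fell by 2.42 ± 0.11 (adjusted p = 9.2e-08), with null at -2.76. Tcf7l2 fell by 0.99 ± 0.12, against -0.29 in null, and null Eα minus null was -0.70 (adjusted p = 0.0015). Of the destruction complex and its regulators, 10 of 15 fell, 5 of them at least 2-fold, and 2 rose. With quantile normalization 6 fell and 3 rose. Gsk3a, a kinase that phosphorylates β-catenin, read 10.71, 10.70 and 10.63 on the flox arrays and 8.92, 8.60 and 8.71 on the null Eα arrays. It fell by 1.94 ± 0.09, while Gsk3b fell by 0.35. Btrc, which recognises phosphorylated β-catenin for ubiquitination, fell by 1.99 ± 0.11. The Dishevelled genes Dvl3 and Dvl2, which carry the signal from the receptor, fell by 1.51 and 1.29. Csnk1a1, the priming kinase, rose by 0.60.

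Among ligands, receptors and secretion factors, 17 of 34 rose, 2 of them at least 2-fold, and 6 fell. The median of this list, 0.27, was near the 0.22 of olfactory and vomeronasal receptor genes, of which 41.8% rose. Of all genes above background 25.4% rose. Porcn, the acyltransferase that Wnt proteins need to leave the cell, read 9.84, 9.83 and 9.82 on the flox arrays and 7.52, 7.46 and 7.24 on the null Eα arrays. The fall was 2.42 ± 0.09 (adjusted p = 2.9e-08), with null at -3.97 and null Eα 1.55 above null (adjusted p = 1.4e-06). Sfrp1, a secreted antagonist that binds Wnt proteins, read 10.93, 10.90 and 10.83 on the flox arrays and 8.67, 9.0 and 9.0 on the null Eα arrays. It fell by 2.0 ± 0.12 and null by a similar value (-2.14). The antagonist genes Dkk2 and Frzb rose by 1.06 and 1.10, and Frzb was below background in both groups. The receptor genes Fzd1 and Fzd8 rose by 0.86 and 0.87. Wnt5a, a ligand known for signalling outside the β-catenin branch, rose by 0.98 ± 0.14. The coreceptor genes Lrp5 and Lrp6 fell by 0.43 and 0.53.

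**Figure D2:**
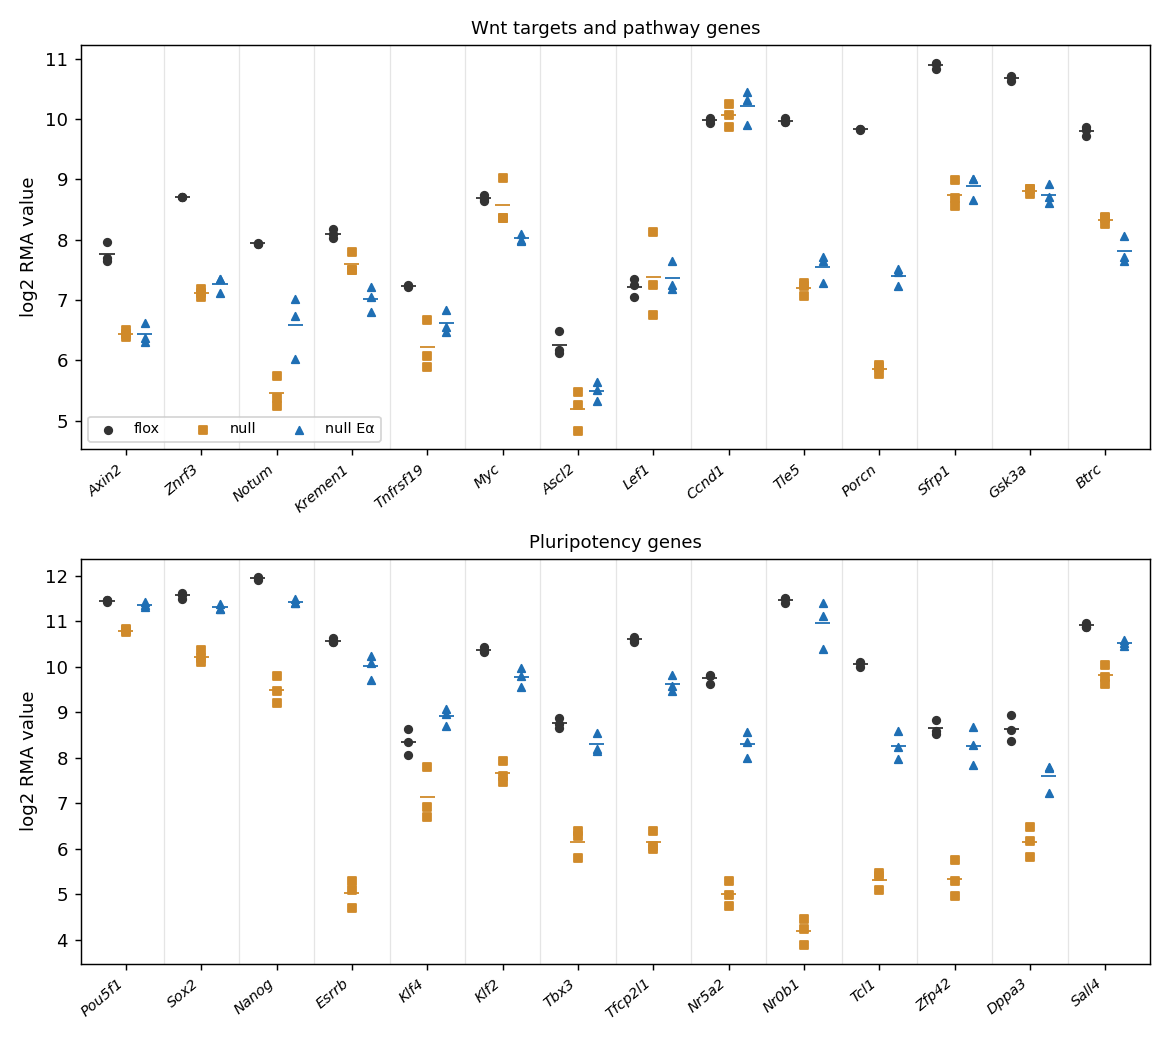
Log2 signal of Wnt pathway and pluripotency genes on each of the 9 arrays, with points for single arrays coloured by group and bars for the group means. Axin2 and Znrf3 in null Eα lay with null, whereas Nanog, Esrrb and Tfcp2l1 in null Eα lay between the groups and nearer to flox.

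By their median, core pluripotency genes lay nearer to flox in null Eα cells than in null cells. Of 13 measured, 7 fell and 1 rose, with a median of -0.38 against -1.34 in null. Over all genes above background 43.1% fell, and the median was -0.14. The falls numbered 4 without flox replicate 2 or flox replicate 3, and 3 after quantile normalization. Pou5f1, which encodes Oct4, read 11.46, 11.42 and 11.46 on the flox arrays and 11.35, 11.42 and 11.31 on the null Eα arrays. The groups lay next to each other without overlapping, and the difference of -0.09 (95% interval -0.23 to 0.06) was not called. It was called at -0.17 with median-centred arrays. Sox2, its binding partner, fell by 0.26 ± 0.09 (adjusted p = 0.022). The call on Sox2 was lost after quantile normalization and without flox replicate 2, flox replicate 3 or null Eα replicate 1, at differences between -0.26 and -0.18. Nanog read 11.96, 11.91 and 11.97 on the flox arrays and 11.39, 11.50 and 11.41 on the null Eα arrays. It fell by 0.51 ± 0.12 (adjusted p = 0.0051), while null lay -2.46 from flox. Null Eα was 1.95 above null (adjusted p = 3.9e-06). Nanog lies on chromosome 6, and its call was lost, at -0.14, when each chromosome was centred.

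The largest fall in the core list was that of Fgf4, the main FGF ligand of stem cells, which read 10.45, 10.44 and 10.62 on the flox arrays and 9.16, 9.40 and 9.14 on the null Eα arrays. It fell by 1.27 ± 0.09 (adjusted p = 1.7e-06), with null at -3.33. Utf1, a chromatin factor, fell by 0.80, and Tdgf1, the Nodal coreceptor Cripto, rose by 0.69. Dppa5a and Dppa4 differed by -0.39 and -0.07, and by -6.62 and -3.84 in null. Dppa5a was called, but not when any 1 of the flox or null Eα arrays or null replicate 1 was left out, at differences between -0.41 and -0.35.

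Genes of the naive network were lower by a modest amount. Of 18, 14 fell and 0 rose, 6 of the falls by at least 2-fold, with a median of -0.58 against -3.24 in null. A single rise appeared without flox replicate 2, null replicate 1 or null Eα replicate 3. Tcl1, an activator of the kinase Akt, read 9.99, 10.10 and 10.09 on the flox arrays and 8.24, 8.60 and 7.97 on the null Eα arrays. It fell by 1.79 ± 0.15 (adjusted p = 4.0e-06), against -4.75 in null. Nr5a2, a nuclear receptor that binds the Pou5f1 promoter, fell by 1.44 ± 0.16, against -4.73. Sox15, Pecam1 and Tet2 fell by 1.72, 1.57 and 1.51. Tfcp2l1 fell by 0.97 ± 0.12 and Esrrb, an orphan nuclear receptor, by 0.56 ± 0.16 (adjusted p = 0.011). The Esrrb call was lost after quantile normalization, at -0.34. Klf4 was not called at 0.57 (95% interval 0.01 to 1.14), but it was without null replicate 1, at the same value, and after quantile normalization, at 0.90.

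Genes taken as repressed by Tcf7l1, which overlap the naive list, gave 6 falls and 0 rises among 9, with a median of -0.51 against -2.70 in null. Without null replicate 2 there was 1 rise. Klf2 read 10.42, 10.32 and 10.35 on the flox arrays and 9.79, 9.97 and 9.55 on the null Eα arrays and fell by 0.60 ± 0.13 (adjusted p = 0.0028). Its call was lost, at -0.16, when each chromosome was centred. Tcf7l1 itself, at 0.28 in null Eα, lay 0.70 from flox in null. Nr0b1 read 11.50, 11.49 and 11.40 in flox, 3.88, 4.24 and 4.46 in null and 11.11, 11.40 and 10.40 in null Eα. Its difference of -0.49 was not called, but it was without null Eα replicate 2 (-0.71) and with median-centred arrays (-0.57), and null lay -7.27 from flox.

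Primed epiblast genes, which mark the state after implantation, were split. Of 19, 5 rose and 5 fell. Fgf15 read 6.56, 6.50 and 6.52 on the flox arrays and 8.21, 8.38 and 9.08 on the null Eα arrays and rose by 2.03 ± 0.26. Fgf5, the classical marker, read 6.15, 6.18 and 6.05 on the flox arrays and 7.44, 6.91 and 9.97 on the null Eα arrays, with replicate 3 the highest. It rose by 1.98 ± 0.61 (adjusted p = 0.016), or by 1.05 without replicate 3, with null at 3.75. The DNA methyltransferase gene Dnmt3b and the factor Pou3f1 rose by 0.75 and 0.62. Zic2 and Zic5, zinc finger factors, fell by 2.71 ± 0.42 and 2.19 ± 0.31, against -1.38 and -0.82 in null. Otx2 read 8.77, 8.82 and 8.79 in flox and 8.52, 8.47 and 9.64 in null Eα, where replicate 3 alone was high, and its difference of 0.09 was not called.

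By the fitted difference the largest rises were those of Tnc, Usp17ld, Thbs1, Anxa1, Mmp3 and Acta2. Tnc, the matrix glycoprotein tenascin C, read 4.50, 4.33 and 4.29 on the flox arrays and 10.46, 10.03 and 9.85 on the null Eα arrays. It rose by 5.74 ± 0.19 (adjusted p = 2.2e-08), which is at least 34.5-fold when taken against the background level of flox, with null at 6.45. Thbs1, the adhesive glycoprotein thrombospondin 1, read 6.37, 6.51 and 6.34 on the flox arrays and 11.85, 11.53 and 11.67 on the null Eα arrays. It rose by 5.28 ± 0.10. Every null Eα array exceeded every flox array by more than 5 log2 units in both genes. Anxa1, a calcium-dependent membrane-binding protein, read 5.04, 4.97 and 5.07 on the flox arrays and 10.37, 10.16 and 9.86 on the null Eα arrays and rose by 5.11 ± 0.11. Acta2, smooth muscle actin, read 5.78, 6.05 and 5.90 on the flox arrays and 10.92, 10.50 and 10.54 on the null Eα arrays and rose by 4.74 ± 0.16. In Anxa1 and Acta2 null was higher again, and null Eα minus null was -1.23 (adjusted p = 3.9e-05) and -1.26 (adjusted p = 0.00031).

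Mmp3, the protease stromelysin 1, read 4.0, 3.86 and 3.76 on the flox arrays and 9.01, 8.77 and 8.07 on the null Eα arrays and rose by 4.74 ± 0.60. Ptgs2, the inducible enzyme of prostaglandin synthesis, rose by 4.59 ± 0.22, and Bgn, the proteoglycan biglycan, by 4.52 ± 0.12. Has2, a hyaluronan synthase, read 4.65, 4.33 and 4.52 on the flox arrays and 8.71, 8.23 and 9.0 on the null Eα arrays and rose by 4.15 ± 0.26. Values of null lay beside these, at 4.55, 4.80, 5.08 and 4.82 from flox.

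**Figure D3:**
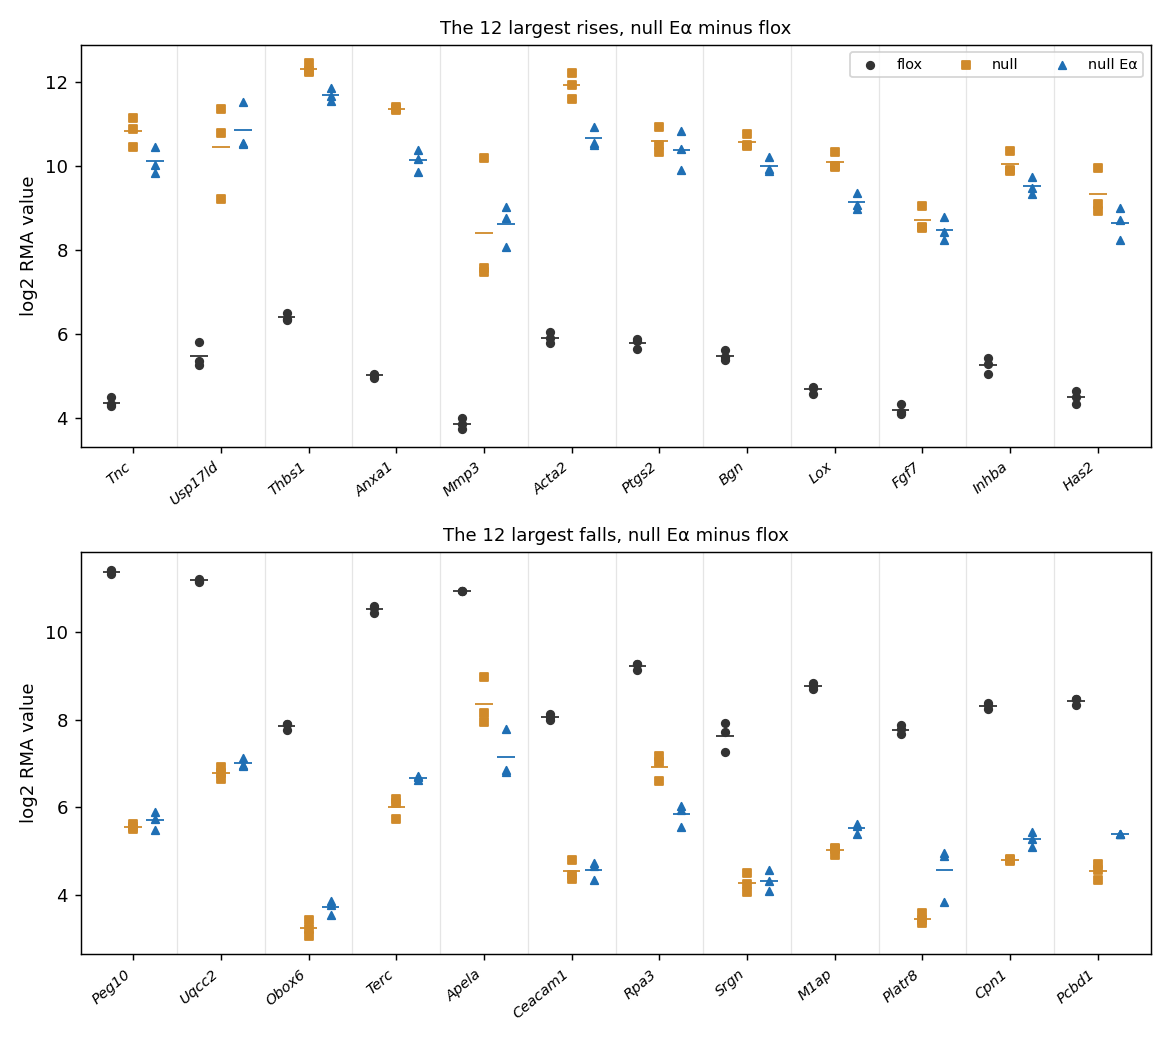
Log2 signal of the 12 largest rises and the 12 largest falls of null Eα against flox on each of the 9 arrays, with 1 column per gene, points coloured by group and bars for the group means. In every column the 3 null Eα points lie clear of the 3 flox points, and their mean is nearer to null than to flox in all 24. The genes were chosen for large differences from flox without overlap, so both are descriptions and were not tested. Null Eα against null was called in 15 of the 24 genes, among them Anxa1, Acta2 and Rpa3.

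Of 34 extracellular matrix genes, 25 rose and 3 fell, 17 of the rises by at least 2-fold, with a median of 1.02 against 1.74 in null. The fibrillar collagen genes Col1a2, Col1a1, Col3a1, Col5a2 and Col5a1 rose by 3.65, 3.16, 1.97, 1.82 and 1.20. Lox, which cross-links collagen, read 4.73, 4.75 and 4.59 on the flox arrays and 9.35, 9.07 and 8.98 on the null Eα arrays and rose by 4.44 ± 0.12. The basement membrane genes Lamb1 and Col4a2 rose by 1.54 and 1.25. Sparc fell by 1.37 and Fn1, fibronectin, by 0.43, and 5 members fell without null Eα replicate 3. Sparc read 11.52, 11.45 and 11.47 on the flox arrays and 10.06, 9.95 and 10.32 on the null Eα arrays, and null, at -0.17, lay close to flox. Null Eα minus null was -1.20 (adjusted p = 2.0e-05).

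Fibroblast markers were nearly all higher. Of 16, 14 rose and 0 fell, 12 of the rises by at least 2-fold, with a median of 1.92, and 6 genes are shared with the matrix list. Summed over the 16 genes, the linear signal lay between 864 and 973 in flox, between 4723 and 6059 in null Eα and between 8997 and 10979 in null. The members that stayed below background in flox and null Eα were Lum (0.71, called without null replicate 2), Fap (0.40, not called without flox replicate 1, flox replicate 3 or null Eα replicate 2) and Meox1 (-0.02, called at -0.23 after quantile normalization and at 0.38 with each chromosome centred). Dcn, the proteoglycan decorin, read 4.17, 4.30 and 4.13 on the flox arrays and 8.25, 7.80 and 7.43 on the null Eα arrays, and Postn rose by 2.51 ± 0.24. Prrx1, a factor of limb and connective tissue mesenchyme, read 4.83, 5.03 and 4.88 on the flox arrays and 8.86, 8.44 and 8.32 on the null Eα arrays and rose by 3.62 ± 0.24. The part of such cells in the rises of matrix, actin and annexin genes was not tested. Of 14 factors of the epithelial to mesenchymal transition, 7 rose and 2 fell. Besides Prrx1, Twist2 rose by 1.86 and Zeb2 by 0.95, while Snai1 and Snai2 were not called, at -0.10 and 0.00. Vim, the filament protein vimentin, was not called either (0.11, 95% interval -0.06 to 0.28).

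Target genes of the contractile and mechanical pathways went both ways. Of 25 SRF and actin genes, 10 rose and 7 fell, 6 of the rises by at least 2-fold. Tagln, an actin cross-linker of smooth muscle, read 5.38, 5.26 and 5.30 on the flox arrays and 8.60, 8.03 and 8.33 on the null Eα arrays and rose by 3.0 ± 0.16, against 4.74 in null. Actg2, Myl9 and Tpm1 rose by 1.61, 1.23 and 0.89. Mrtfa, the actin-sensing coactivator of SRF, fell by 1.09. Of 25 YAP/TEAD targets, 10 rose and 5 fell, with a median of 0.29 against 1.03 in null. Ankrd1, a titin-associated repeat protein, read 4.45, 4.68 and 4.30 on the flox arrays and 7.45, 7.02 and 6.87 on the null Eα arrays and rose by 2.63 ± 0.17. Ccn1 rose by 1.06, whereas Ccn2, the most used YAP read-out, was not called at -0.21 (95% interval -0.47 to 0.06), and was called at the same value without null replicate 3. Nt5e, the ectoenzyme CD73, fell by 1.71 ± 0.20. Of 16 annexin and S100 genes, 9 rose and 5 fell. Anxa2, Anxa3 and S100a6 rose by 2.30, 2.17 and 2.13, and Anxa11 fell by 1.43.

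Integrins and matrix receptors gave 6 rises and 6 falls among 19, with 3 falls without flox replicate 3. Cd44, the hyaluronan receptor, read 4.17, 4.40 and 4.27 on the flox arrays and 7.72, 7.38 and 7.16 on the null Eα arrays and rose by 3.14 ± 0.13, with null at 3.39. Itgb1, the common β1 chain, rose by 1.16, and Dag1, dystroglycan, fell by 1.53. Itga3, which pairs with β1 on laminin, read 8.90, 8.85 and 8.93 on the flox arrays and 7.56, 7.48 and 8.81 on the null Eα arrays, with replicate 3 nearest to flox. It fell by 0.94 ± 0.30, whereas null lay 1.11 from flox. The call was lost without flox replicate 3 (-0.93), null Eα replicate 1 (-0.75) or null Eα replicate 2 (-0.71).

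Of 21 adherens junction genes, 10 fell and 5 rose, close to the 43.1% and 25.4% of all genes above background. The rises numbered 3 without flox replicate 3, any 1 null array, or null Eα replicate 3, and after quantile normalization 5 rose and 5 fell. Cdh3, P-cadherin, read 10.05, 10.15 and 10.11 on the flox arrays and 7.83, 7.59 and 7.70 on the null Eα arrays. It fell by 2.40 ± 0.10 (adjusted p = 5.4e-08), with null at -2.23. Cdh11, a mesenchymal cadherin on the same chromosome 8, read 5.31, 4.99 and 5.58 on the flox arrays and 8.34, 8.31 and 8.16 on the null Eα arrays and rose by 2.98 ± 0.18. Jup, plakoglobin, the closest relative of β-catenin and able to take its place at the junction, read 10.16, 10.11 and 10.06 on the flox arrays and 8.88, 8.85 and 8.85 on the null Eα arrays. It fell by 1.25 ± 0.10 (adjusted p = 3.6e-06), against -0.71 in null, and null Eα minus null was -0.54 (adjusted p = 0.0031). Nectin2, a nectin that joins the actin skeleton through afadin, fell by 0.74, against -0.05 in null.

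Desmosome genes gave no rise of at least 2-fold and 1 such fall, and keratin genes neither. Of 13 desmosome genes, 5 rose and 2 fell, with 3 rises without flox replicate 2. Dsc2, a desmosomal cadherin, read 4.94, 4.89 and 4.93 on the flox arrays and 5.57, 5.64 and 5.96 on the null Eα arrays and rose by 0.81 ± 0.16, while null lay 3.38 above flox. Of 6 keratins of simple epithelia, 3 rose and 0 fell, and without null Eα replicate 3 there were 2 falls. Krt8 read 8.49, 8.55 and 8.35 on the flox arrays and 8.91, 8.72 and 9.0 on the null Eα arrays and rose by 0.41 ± 0.10, against 3.06 in null. Krt18 and Krt19 were not called, at -0.40 and -0.33, but fell without null Eα replicate 3, at -0.63 and -1.01. Null Eα lay below null by a difference of -2.65 in Krt8 (adjusted p = 1.4e-07). Summed over the 6 genes, the linear signal lay between 866 and 916 in flox, between 821 and 1189 in null Eα and between 5538 and 7116 in null.

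Tight junction genes gave 3 rises and 4 falls among 21. With single arrays left out, rises ranged from 1 (without flox replicate 2, flox replicate 3 or null Eα replicate 1) to 4. Falls ranged from 2 (without flox replicate 1 or null Eα replicate 1) to 7 (without null Eα replicate 3). Ocln, occludin, read 7.01, 7.0 and 6.94 on the flox arrays and 5.16, 5.41 and 5.65 on the null Eα arrays and fell by 1.58 ± 0.16 (adjusted p = 1.4e-05). Null lay at 0.07 from flox, and null Eα minus null was -1.64 (adjusted p = 4.7e-05). Cldn12 fell by 0.97 and Cgn, cingulin, rose by 0.73. Of 20 adhesion molecules outside the cadherins, 10 fell and 3 rose, a share of falls near the 43.1% of all genes above background. Ceacam1 read 7.99, 8.07 and 8.12 on the flox arrays and 4.73, 4.67 and 4.34 on the null Eα arrays and fell by 3.48 ± 0.13, at least 6.37-fold against the background level of null Eα, with null at -3.51. Jam2 fell by 1.52 ± 0.15, against -5.14 in null. Vcam1, an integrin ligand, rose by 2.67 ± 0.35, against 2.90.

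The largest falls were led by Peg10, a retrotransposon-derived imprinted gene, which read 11.38, 11.31 and 11.40 on the flox arrays and 5.73, 5.90 and 5.48 on the null Eα arrays. It fell by 5.66 ± 0.10 (adjusted p = 1.2e-09) to 1.98% of flox, and null Eα minus null was 0.15 (adjusted p = 0.29). Uqcc2, which helps to assemble complex III of the respiratory chain, has 2 features and is given at the brighter one. It read 11.21, 11.17 and 11.14 on the flox arrays and 7.12, 6.97 and 6.94 on the null Eα arrays. The fall was 4.16 ± 0.09, and over the processing alternatives the difference lay between -4.25 and -3.17. Obox6, an oocyte homeobox gene, read 7.90, 7.76 and 7.90 on the flox arrays and 3.55, 3.79 and 3.87 on the null Eα arrays and fell by 4.12 ± 0.11, whereas its other feature, dim in both groups, differed by -0.07 and the mean over both features by -2.10. In these 3 genes the arrays of each group lay close together and the groups far apart. Apela, a hormone-like peptide that signals through the apelin receptor, read 10.92, 10.93 and 10.94 on the flox arrays and 6.81, 6.86 and 7.80 on the null Eα arrays, with replicate 3 the highest. It fell by 3.77 ± 0.29, and null Eα lay -1.20 from null (adjusted p = 0.011). Rpa3, the smallest subunit of the single-strand DNA-binding complex RPA, also has 2 features and is given at the brighter one. It read 9.26, 9.13 and 9.27 on the flox arrays and 5.95, 5.55 and 6.03 on the null Eα arrays. The fall was 3.38 ± 0.16, and over the processing alternatives the difference lay between -3.47 and -2.51. Null lay -2.29 from flox. The remaining large falls were Srgn (-3.31), the proteoglycan serglycin, M1ap (-3.23), a meiotic gene, the noncoding Platr8 (-3.21), Cpn1 (-3.05), a carboxypeptidase subunit, and Pcbd1 (-3.03).

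Imprinted genes, expressed from 1 parental allele, went both ways, with 14 rises and 15 falls among 33. Sgce, the neighbour of Peg10 on chromosome 6, read 7.74, 8.19 and 8.04 on the flox arrays and 6.06, 5.86 and 5.58 on the null Eα arrays and fell by 2.16 ± 0.17, with null at -2.16. Mest, also on chromosome 6, fell by 2.70 ± 0.09, and Nnat by 1.83 ± 0.10. Ndn, on the other hand, fell by 1.25 ± 0.19 while null lay at -0.04. Meg3, a noncoding RNA of the Dlk1 domain, read 5.47, 5.23 and 5.27 on the flox arrays and 7.17, 6.64 and 6.85 on the null Eα arrays and rose by 1.57 ± 0.17, against 4.52 in null. Cdkn1c, a cell cycle inhibitor, rose by 1.28, and Grb10 by 0.97. Igf2, the growth factor, read 8.29, 8.30 and 8.29 on the flox arrays and 7.16, 7.73 and 7.88 on the null Eα arrays. It fell by 0.70 ± 0.16, while null lay 0.81 above flox.

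Of 25 germline genes, 13 fell, 11 of them at least 2-fold, and 1 rose. Beside this list and the Polycomb list below, 43.1% of all genes above background fell. At least 2-fold falls made up 9.75% of all genes. Dazl, an RNA-binding protein of germ cells, read 7.86, 7.94 and 7.94 on the flox arrays and 5.06, 5.08 and 4.96 on the null Eα arrays and fell by 2.88 ± 0.08, against -3.69 in null. Mael and Sohlh2 fell by 2.61 and 2.44, and the meiotic genes Hormad1, Stra8 and Sycp3 by 2.25, 1.57 and 1.49. Piwil2 was not called at 0.03, against -1.73 in null. Of 18 Polycomb genes, 10 fell, 6 of them at least 2-fold, and 1 rose, with a median of -0.69. Without flox replicate 3 or null Eα replicate 3, 2 rose. Rybp, a subunit of variant complex 1, read 10.62, 10.80 and 10.76 on the flox arrays and 8.91, 8.87 and 8.74 on the null Eα arrays and fell by 1.89 ± 0.08. The methyltransferase genes Ezh1 and Ezh2 fell by 1.85 and 1.12, while Jarid2 was not called at -0.17. In DNA methylation, 6 of 12 fell, near the 43.1% of all genes above background, and 2 rose. After quantile normalization 2 fell and 3 rose. Rises numbered 1 without flox replicate 2, null Eα replicate 1 or null Eα replicate 3. Mbd1, a methyl-CpG binding protein, fell by 0.64, and Dnmt3l was not called at -0.23, against -6.32 in null.

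Terc, the RNA template of telomerase, read 10.54, 10.43 and 10.59 on the flox arrays and 6.62, 6.70 and 6.71 on the null Eα arrays. It fell by 3.84 ± 0.11 (adjusted p = 1.4e-08) to 6.98% of flox, with null at -4.50, and null Eα lay 0.66 above null (adjusted p = 0.0014). Of 14 telomerase and telomere genes, 8 fell and 3 rose, with 1 rise without flox replicate 1 and 5 without null replicate 1. Of all genes above background 43.1% fell. Pot1a, which coats the single-stranded telomere end, fell by 2.03 ± 0.16, against -0.52 in null. Tert, the catalytic subunit, fell by 0.37.

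Of 28 DNA replication genes, 17 fell and 3 rose, with a median of -0.48 and against 43.1% lower among all genes above background. The rises numbered 1 without flox replicate 2 or null Eα replicate 3. Rfc5, a clamp loader subunit, fell by 1.29 ± 0.08, and Mcm2, a subunit of the replicative helicase, by 1.12. Cell cycle regulators gave 11 falls and 3 rises among 22, with 5 rises without null Eα replicate 3. Ccnd3, a D-type cyclin, read 10.31, 10.28 and 10.18 on the flox arrays and 8.66, 8.66 and 8.53 on the null Eα arrays and fell by 1.64 ± 0.08, whereas Ccnd2 rose by 1.14. E2f1 fell by 1.46, Cdk1 by 1.10, and the inhibitor gene Cdkn2b rose by 1.31. Of 17 p53 targets, 7 rose and 2 fell. Plk2 read 7.0, 7.07 and 7.28 on the flox arrays and 9.81, 9.55 and 9.80 on the null Eα arrays and rose by 2.60 ± 0.11, and Gadd45a rose by 1.61. Cdkn1a was not analysed here, and Mdm2 was not called at 0.06.

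Signalling genes outside the Wnt pathway showed a few large differences. Inhba, the subunit of activin A, read 5.05, 5.45 and 5.30 on the flox arrays and 9.75, 9.34 and 9.48 on the null Eα arrays and rose by 4.26 ± 0.15, a 19.1-fold change. Bmp4, which supports self-renewal together with LIF, read 10.23, 10.10 and 10.13 on the flox arrays and 7.64, 7.62 and 7.06 on the null Eα arrays. It fell by 2.72 ± 0.17 (adjusted p = 5.7e-07), with null at -3.17. Bmp7 and the BMP target gene Id3 fell by 1.45 and 1.04, while Id1 rose by 0.36. Fst, the activin antagonist follistatin, rose by 1.71. In the whole Nodal, BMP and TGF-β list 10 of 31 rose and 7 fell, with 11 falls without null Eα replicate 3. Nodal itself was not called at -0.17 (95% interval -0.35 to 0.00), but it was without null Eα replicate 3 (-0.23) and with median-centred arrays (-0.26).

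In the FGF/ERK list 11 of 26 fell and 8 rose, and after quantile normalization 8 fell and 11 rose. The share of falls was near the 43.1% of all genes above background. The feedback inhibitor genes Spry4 and Spred2 fell by 1.06 and 1.31, and Fgfr1 by 0.80, but Spry2 and Phlda1 rose by 0.66 and 0.91. Fgf7, a ligand made by mesenchyme, read 4.15, 4.11 and 4.34 on the flox arrays and 8.79, 8.44 and 8.23 on the null Eα arrays and rose by 4.29 ± 0.17. In the LIF/STAT3 list 5 of 15 fell and 3 rose, and after quantile normalization 4 fell and 8 rose. Lifr and Il6st, the receptor chains, fell by 0.71 and 0.69, against -3.03 and -1.16 in null. Tyk2, a Janus kinase, fell by 1.39, and Socs3, a STAT3 target, rose by 0.53.

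Lineage lists differed in direction. Of all genes above background in either group 25.4% rose, and of those below it in both groups 49.5%. Of 21 primitive streak and mesoderm genes, 18 were above background. In this list 11 rose and 1 fell, with 2 falls without null Eα replicate 3, and 8 rose with dim genes left out. Pdgfra, the receptor found on mesoderm and on primitive endoderm, read 5.60, 5.51 and 5.49 on the flox arrays and 7.39, 7.13 and 6.61 on the null Eα arrays and rose by 1.51 ± 0.29. Eomes, the member that fell, read 7.69, 7.75 and 7.77 on the flox arrays and 6.37, 6.41 and 6.70 on the null Eα arrays and fell by 1.25 ± 0.10. Mixl1 and Gsc were not called, at 0.06 and 0.17. Of 22 endoderm genes, 20 of them above background, 14 rose and 3 fell, and 12 rose with dim genes left out. The rises of at least 2-fold were those of Thbd (2.22), Lamb1, Pdgfra and Col4a2, while the factor genes Gata6, Gata4 and Sox17 were not called, at -0.06, 0.08 and 0.08. Trophectoderm genes gave 3 rises and 6 falls among 15, led by Plet1 with a fall of 2.22 ± 0.17. Early neural genes gave 7 rises and 5 falls among 18, and 4 rises with dim genes left out. Neurog1 fell by 1.77 and Sox1 rose by 0.94. Of 12 endothelial and blood markers, 5 were above background. Rises numbered 4, and 2 without flox replicate 3, and falls 2, and 1 without flox replicate 1, flox replicate 2, null Eα replicate 1 or null Eα replicate 3. Csf1r (0.59) and Kdr (0.56) were below background, and Tek fell by 0.64.

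Metabolic and stress genes varied without a common direction. Of 21 glycolysis and hypoxia genes, 6 rose and 7 fell, with Pgk1 at 0.67 and Egln3 at -1.09. Of 15 cholesterol synthesis genes, 4 rose and 8 fell, led by Mvk, mevalonate kinase, with a fall of 1.07 ± 0.07. With quantile normalization 6 of these genes rose and 4 fell. Of 15 threonine, serine and one-carbon genes, 4 rose and 7 fell. Mthfd2, a mitochondrial folate enzyme, read 9.89, 9.96 and 9.90 on the flox arrays and 8.29, 8.29 and 8.07 on the null Eα arrays and fell by 1.70 ± 0.10, against -0.78 in null. In the interferon and antigen presentation list 7 of 19 rose and 7 fell. Nlrc5, the activator of class I genes, rose by 1.51 at its brightest feature and by 0.48 as the mean over its 19 features. Tap1 and Psmb8 rose by 0.81 (0.50 without null Eα replicate 3) and 0.78, while Ifitm1, Ifitm2 and Ifitm3 fell by 1.01, 1.10 and 0.95. Of 6 measured genes of the 2-cell-like state, 3 of them above background, 4 rose and 0 fell. Among all genes 25.4% of those above background in either group rose, and 49.5% of those below it in both. Usp17ld read 5.27, 5.36 and 5.82 on the flox arrays and 11.53, 10.54 and 10.52 on the null Eα arrays and rose by 5.38 ± 0.47, but its copies in the Usp17 family are nearly identical and their signals cannot be assigned with certainty, and Zfp352 was not called at 0.04.

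Several genes sat at the same level with and without the fusion. They were chosen as the 8 largest differences from flox among genes whose null Eα and null means lay within 0.2, so their likeness to null is a description and was not tested. Besides Peg10, Ceacam1, Srgn and Mmp3, they were Mmp13 (3.94, null 4.02), Cav1 (3.35, null 3.53), Ccl2 (3.24, null 3.19) and St8sia6 (-3.02, null -3.08). Mmp13, a collagenase, read 4.19, 4.18 and 3.88 on the flox arrays and 8.30, 7.89 and 7.89 on the null Eα arrays. Cav1, the main protein of caveolae, read 4.33, 4.37 and 4.37 on the flox arrays and 8.07, 7.60 and 7.45 on the null Eα arrays. Neither overlapped with flox. Mmp3 varied among the null arrays, at 7.58, 10.20 and 7.47.

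Genes that differed in null Eα while null lay within 0.2 of flox were chosen in the same manner, and all 8 fell. Stxbp4 read 8.65, 8.74 and 8.80 in flox, 8.83, 8.45 and 8.50 in null and 6.67, 6.75 and 7.27 in null Eα, a fall of 1.83 ± 0.15. Tax1bp3 fell by 1.77 ± 0.15, and Ssh2, a phosphatase that activates the actin-severing protein cofilin, by 1.82 ± 0.21. These 3 genes lie on chromosome 11. Zdhhc2 and Lpl, on chromosome 8, fell by 1.69 ± 0.36 and 1.64 ± 0.30, and in both replicate 3 lay nearer to flox. The others were Elovl4 (-1.68), Nudt12 (-1.61) and Ocln.

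Chromosomes 6, 8 and 11 stood lower as wholes. Over the 14367 genes above background in either group that have a chromosome, the median difference was -0.14. On chromosome 6 it was -0.37 over 676 genes, on chromosome 8 -0.43 over 778 genes and on chromosome 11 -0.40 over 1274 genes. On each of the other chromosomes the median lay between -0.20 and 0.01. The shares that fell were 55.5%, 59.6% and 57.2%, in that order. Each null Eα array gave the same picture, with medians from -0.46 to -0.36 on these 3 chromosomes. In null the medians were -0.07, -0.31 and -0.09. Chromosome copy number was not measured. Several falls named above lie on these chromosomes, among them Axin2, Znrf3, Notum, Kremen1, Jup, Cdh3, Sfrp1, Peg10, Mest, Rpa3, Nanog and Klf2. For centring, the median of each chromosome's genes above background was subtracted from all its genes, dim ones included. With this centring 9262 genes rose and 5139 fell, and the shares of higher genes among called ones were 64.3% against 50.4%. The median over all genes was then 0.20, against 0.07 without it, so the higher share partly reflects the procedure.

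**Figure D4:**
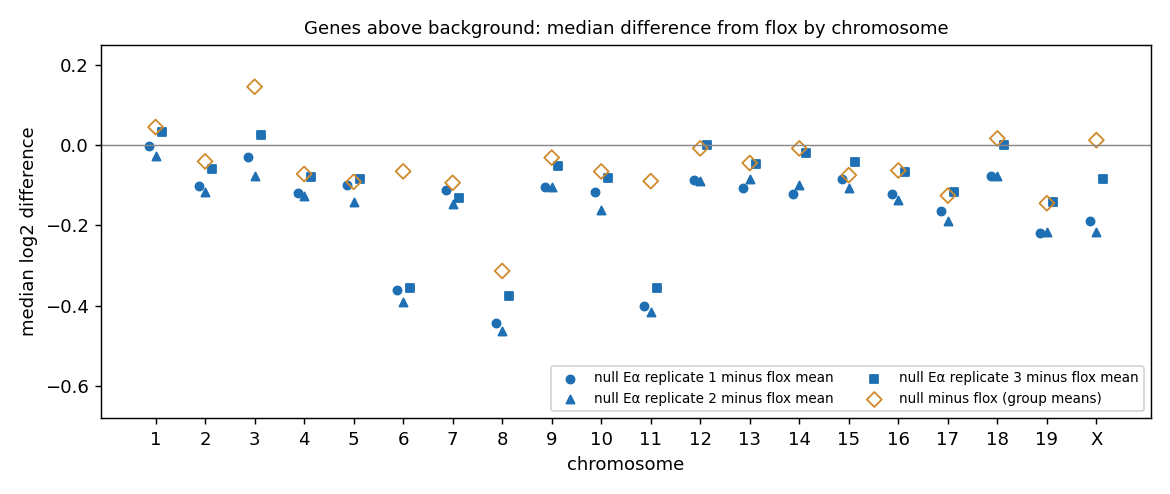
Median log2 difference from flox of the genes on each chromosome, for genes above background, with each null Eα array against the flox mean as a filled point and the null group mean as an open diamond. Chromosomes 6, 8 and 11 lie lowest on all 3 null Eα arrays, with group medians of -0.37, -0.43 and -0.40, while in null chromosomes 6 and 11 lie at -0.07 and -0.09.

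Null Eα replicate 3 carried signals near those of null in a set of genes. Slc39a8, a zinc and manganese transporter, read 5.03, 4.99 and 4.96 in flox, 10.55, 11.17 and 11.17 in null and 5.78, 5.54 and 10.91 in null Eα. Null Eα replicates 1 and 2 thus lay near flox and replicate 3 within the range of null. The group difference of 2.42 ± 1.12 was not called. It was 0.67 and called without replicate 3, and 3.24 and 3.35, both called, without replicate 1 and replicate 2. Klhl4 read 5.15, 5.03 and 8.22 in null Eα, against 8.14, 9.17 and 8.73 in null, and Dhrs3, a retinal reductase, read 6.47, 6.55 and 9.10, against 9.17, 9.08 and 9.53. Car14, a carbonic anhydrase, read 7.60, 7.61 and 7.61 in flox and 6.01, 5.79 and 8.70 in null Eα, so that replicates 1 and 2 lay below flox and replicate 3 above.

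**Figure D5:**
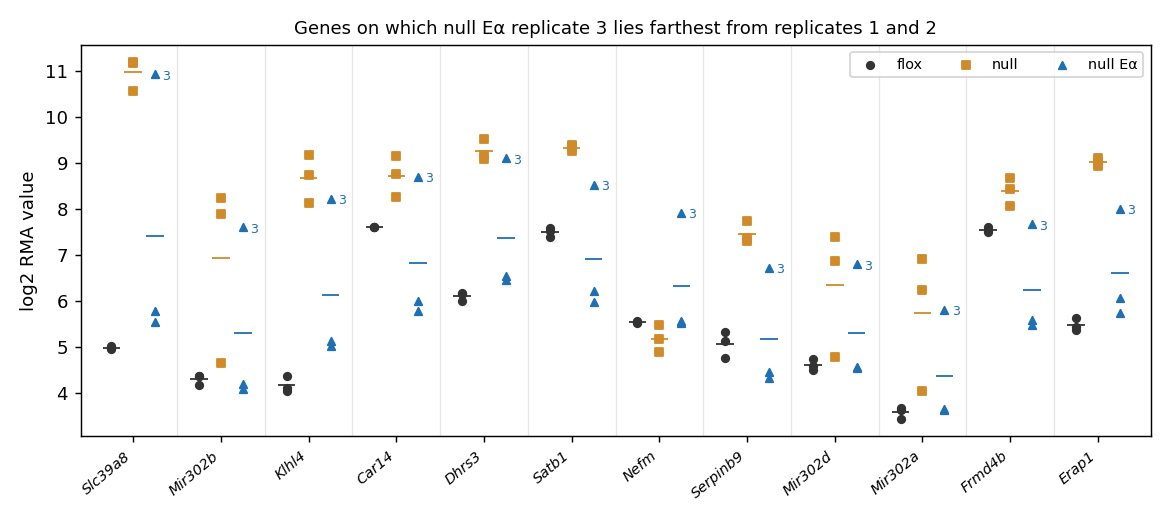
Log2 signal on all 9 arrays of the 12 genes in which null Eα replicate 3 lay farthest from replicates 1 and 2 while those lay within 0.4 of each other. For Slc39a8 the null Eα points were 5.78, 5.54 and 10.91, and the null points 10.55 to 11.17.

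Features of the miR-302 cluster were high on the same array. Mir302b read 4.38, 4.19 and 4.37 in flox, 4.65, 8.23 and 7.89 in null and 4.10, 4.21 and 7.60 in null Eα. Null replicates 2 and 3 and null Eα replicate 3 were high and the other 6 arrays lay under 5, and the differences of Mir302b (0.99), Mir302c (1.18) and Mir302d (0.69) were not called. Of 46 measured microRNA genes, 15 were above background, 19 rose and 7 fell, and after quantile normalization 8 rose and 9 fell. By the fitted difference the falls of at least 2-fold were those of Mir18, Mir363 and Mir19a. They are members of the miR-17-92 cluster on chromosome 14 and of its relative, the miR-106a-363 cluster, on chromosome X. Mir18 read 7.96, 7.94 and 8.08 on the flox arrays and 6.04, 6.52 and 5.87 on the null Eα arrays and fell by 1.85 ± 0.30. Mir363 fell by 1.56 ± 0.17 and Mir19a by 1.54 ± 0.32. The flox mean of Mir363 (5.34) was below the background level of null Eα (5.39), so against that level it shows no fall. Mir17, in the same cluster as Mir18, was not called at 0.11 (95% interval -0.28 to 0.49). The target was made from total RNA for a whole-transcript array, and whether a feature reports the primary transcript or the mature strand was not tested.

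Mature strands are shown to compare their seeds. They include those of the microRNAs that fell at least 2-fold by the fitted difference, and of 2 of the miR-302 members that were high on single arrays. Capitals mark the seed, bases 2 to 8, and sequences are from RefSeq (GRCm38.p6), where 44 of the 46 genes had an entry.
miR-18a-5p: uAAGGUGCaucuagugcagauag
miR-19a-3p: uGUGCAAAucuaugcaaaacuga
miR-363-3p: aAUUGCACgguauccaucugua
miR-92a-3p: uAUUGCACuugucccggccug
miR-17-5p: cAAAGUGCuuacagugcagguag
miR-302b-3p: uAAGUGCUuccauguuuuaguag
miR-302d-3p: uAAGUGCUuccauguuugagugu
miR-294-3p: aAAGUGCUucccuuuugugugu
The 3 that fell at least 2-fold by the fitted difference have 3 different seeds. miR-363-3p shares its seed with miR-92a-3p, which is encoded in both clusters, and miR-302b-3p shares its seed with miR-302d-3p and with miR-294-3p, the abundant stem cell microRNA. Mir18 lies at chr14:115043867-115043889 on the plus strand, Mir19a at chr14:115044048-115044070 on the plus strand, Mir363 at chrX:52741697-52741718 on the minus strand and Mir302b at chr3:127545275-127545297 on the plus strand, each given as the span of the mature strand.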

How the data were processed

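Total RNA of 9 samples in 3 groups was measured on a whole-transcript Affymetrix array, and groups were taken from the labels. The deposited table holds log2 values made by the authors with RMA, per the submitters' processing notes, which give no version; whether all arrays were normalized together is not given in the sources used here. Of 35556 features, 21789 had 1 symbol in the platform annotation, 1621 had several and were left out, and 12146 were not named here. Where a gene had several features (999 genes), the one with the highest mean represented it, for a total of 19938 genes. In 172 of the 744 such genes that were called, a second feature pointed the other way. The genes' chromosomes come from RefSeq (GRCm38.p6).

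The test was limma's (version 3.58.1, R 4.3.3), with all 9 arrays in 1 fit, a mean per group and no covariate. Calls were made where the p adjusted after Benjamini and Hochberg was under 0.05. On simulated data the script called 9 of 19738 unchanged genes, and 27 of 50, 98 of 100 and 50 of 50 genes changed by 0.5, 1 and 2 log2 units. The simulation changed only these genes, with independent noise and no shift that followed signal level. In the data 63.7% of genes were called, so the simulated rates do not measure the share of false calls here. Arrays carry no read depth, and their number limits the precision.

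The members and the 42 gene lists (905 members, 830 measured, 747 different genes) were chosen with earlier results of these data known. Genes named are the 12 largest rises and 12 largest falls that were called, did not overlap and were above background, leaving out predicted, receptor and small RNA genes; up to 3 members of each list with the smallest p; Ctnnb1, Jup, Cdh1, Ctnna1, Axin2, Pou5f1, Sox2, Nanog and Esrrb; 8 genes each at the null level or with null at the flox level; and other list members where a list is described. The genes in which null Eα replicate 3 stands apart were chosen after their values were seen.

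The labels give no pairing, so replicate numbers were not taken as pairs. Same-numbered flox and null Eα arrays correlated in their deviations at 0.110, 0.056 and 0.206, and replicates 3 of null and null Eα at 0.258. Differently numbered arrays were not compared, so these values do not settle whether the numbers mark pairs. Alternatives were quantile normalization, median centring, centring each chromosome, leaving out dim genes, the mean over features, a trended robust prior, the 6 arrays alone, a replicate block, and each array left out in turn. Plots used matplotlib 3.10.9 (Python 3.11.15).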

Additional observations from a re-analysis of the deposited data

Results flagged for a closer look

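Among the 747 list genes, 2 were called on opposite sides of flox in the 2 lines by at least 0.5, and null Eα against null was called for both. Igf2 fell by 0.70 from flox in null Eα cells and lay 0.81 from flox in null cells, and null Eα minus null was -1.51 ± 0.16 (limma adjusted p = 9.1e-05). All 3 null Eα arrays were below all 3 flox arrays, at 7.16, 7.73 and 7.88 against 8.29, 8.30 and 8.29, and null read 9.21, 9.15 and 8.94. Itga3 fell by 0.94 in null Eα cells and lay 1.11 from flox in null cells, and null Eα minus null was -2.05 ± 0.30 (limma adjusted p = 0.00064). Null read 10.11, 9.67 and 10.22, and null Eα replicate 3 was the nearest of its group to these values. After quantile normalization neither fall in null Eα was called, at -0.41 for Igf2 and -0.64 for Itga3. The fall of Itga3 was also not called without flox replicate 3 (-0.93), null Eα replicate 1 (-0.75) or null Eα replicate 2 (-0.71).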

How the results depend on the processing

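Of 226 called genes given by name, 204 kept call and direction in every alternative that tested them (17 in all, fewer for genes left out as dim) and 22 lost the call in at least 1. Quantile normalization ended the calls on 18 of them, among them Kdr, Igf2, Gsk3b, Lrp5, Myc and Tert besides those named with their values above, and centring each chromosome those on Klf2, Nanog, Dppa5a, Itga3, Lrp5 and Lrp6. Among calls that held, quantile normalization moved 18 values by over 1.5 times, centring each chromosome 13 (Kremen1 among them) and the mean over features 2. Of 32 genes not called, 16 were called in at least 1 alternative. With each chromosome centred, Cdh1 turned to 0.17 and Meox1 to 0.38. Meox1, which lay below background, received the same shift as the brighter genes of its chromosome. Rises of all genes numbered 3814 with dim genes left out, where fewer genes (14591) were tested, and rises of at least 2-fold numbered 784 with each chromosome centred, an alternative that by its construction adds the chromosome's shift. With 1 array left out, rises ranged from 5102 to 6550 and falls from 5681 to 6491, and those of at least 2-fold from 408 to 479 and from 1870 to 2072. With a replicate block, 6529 genes rose and 6406 fell, and 446 and 1944 did so at least 2-fold. The share of rises among called genes was 50.4%, and 40.1% with median centring, 37.9% without dim genes and 64.3% with each chromosome centred. Differences under 0.5 are the least certain, since the direction of small differences followed the signal level.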
